A study of Mus musculus with 40 samples.

Results

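The nuclear genes of the mitochondrial respiratory chain were followed through 39 primary mammary tumors of the 4T1- and 66cl4-based models of triple-negative breast cancer. Members were taken by gene symbol. They were all genes of the expression table whose symbol began with Nduf or Uqcr, the genes Sdha, Sdhb, Sdhc and Sdhd, and the genes whose symbol began with Cox4, Cox5, Cox6, Cox7 or Cox8, without the muscle forms Cox6a2 and Cox7a1 and without pseudogenes. This rule found 73 of the 14318 genes. They comprised 7 core and 30 accessory subunits of complex I, 8 complex I assembly factors, 4 subunits of complex II, 8 of complex III and 16 of complex IV. The 8 assembly factors, Ndufaf1 to Ndufaf8, help to build complex I but do not stay in it, so that 65 of the 73 genes encode subunits proper. Ndufa4 and Ndufa4l2 carry a complex I name and were counted with complex IV, where the protein Ndufa4 is now placed. The genes Ndufb1, Cox6b2, Cox6c2, Cox8c and the 13 subunits encoded by mitochondrial DNA were not analysed here.

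Wild-type female BALB/c mice were inoculated through the mammary duct, at lactation, with luciferase-labelled 4T1 or 66cl4 cells, each a single mouse mammary carcinoma line. Each model had 4 groups, which were left untreated, received 200 µg anti-PD-1 antibody, received 1 mg chitin, or received both, as repeated intraperitoneal injections from 3 w post-inoculation. Tumors were taken at 5 w p.i. The untreated 4T1 group held 4 tumors, numbered 1, 2, 4 and 5, since tumor 3 was removed by the authors for degraded RNA, and each other group held 5. Whole tumor tissue was sequenced, so that carcinoma, immune and stromal cells contributed to each value, and a smaller share of a cell type and less RNA per cell cannot be told apart. The models also cannot be told apart from any difference in how their tumors were handled.

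The respiratory chain passes electrons from NADH and succinate to oxygen across the inner mitochondrial membrane. Complex I (NADH dehydrogenase) and complex II (succinate dehydrogenase, also an enzyme of the citric acid cycle) feed ubiquinone, complex III hands the electrons to cytochrome c, and complex IV (cytochrome c oxidase) reduces oxygen. Complexes I, III and IV pump protons, and the gradient drives ATP synthase. Complexes I, III and IV combine nuclear with mitochondrially encoded subunits, whereas complex II is entirely nuclear. Many of the nuclear genes have promoters bound by NRF-1, by the ETS factor GABP (also called NRF-2) or by YY1.

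Promoter windows of RefSeq on the mouse genome GRCm38.p6, from 250 bases before to 50 bases after the start of transcription, were found for 59 of the 73 genes, with 61 windows because 2 genes had 2. Letters were searched on both strands, and the ETS core ends with the letters AAG that open the YY1 core, so that 1 stretch can match both. The NRF-1 core GCGCATGC was present in 9 member windows (14.8%), against 2.71% of all 32851 windows of the table. The ETS core CCGGAAG was present in 13 (21.3%), against 8.86%, and the YY1 core AAGATGGC in 8 (13.1%), against 2.75%. At least 1 of the 3 was found in 26 member windows (42.6%), against 13.3% of all windows. These matches are letters in a window and not measured binding. The 9 genes with the NRF-1 core were Cox6a1, Ndufa6, Ndufa8, Ndufa11, Ndufaf4, Ndufaf5, Sdhb, Uqcr11 and Uqcrc1.

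The 160 bases before the start are printed for 4 members, 5′ to 3′ on the strand of the gene and with motif matches in capitals. Cox7b2 (minus strand, chr5:71548206-71548365) is shown because its RNA was at 0 reads in every 4T1 tumor, and Cox7b (plus strand, chrX:106015540-106015699) because it is the paralog read in all tumors. Neither window held any of the 3 motifs. Cox6a1 (minus strand, chr5:115348959-115349118) had the highest level per kb of exon of all members, and its stretch holds the NRF-1 core, in reverse, from base -160 and the ETS core, in reverse, from base -16. Uqcr11 (minus strand, chr10:80406822-80406981) did not pass the test between models, and its stretch holds the ETS core from base -66.
Cox7b2: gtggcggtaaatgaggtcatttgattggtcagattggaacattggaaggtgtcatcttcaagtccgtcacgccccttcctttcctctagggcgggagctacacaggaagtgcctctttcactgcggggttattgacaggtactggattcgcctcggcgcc
Cox7b: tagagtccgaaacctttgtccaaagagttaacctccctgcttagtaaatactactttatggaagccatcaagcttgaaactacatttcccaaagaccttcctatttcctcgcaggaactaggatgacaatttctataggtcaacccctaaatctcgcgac
Cox6a1: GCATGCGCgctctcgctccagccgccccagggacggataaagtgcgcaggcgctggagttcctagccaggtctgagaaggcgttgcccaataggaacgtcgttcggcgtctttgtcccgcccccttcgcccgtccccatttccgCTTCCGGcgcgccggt
Uqcr11: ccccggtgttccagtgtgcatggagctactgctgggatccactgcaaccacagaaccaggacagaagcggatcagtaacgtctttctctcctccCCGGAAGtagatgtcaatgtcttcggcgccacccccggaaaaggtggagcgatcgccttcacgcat

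Reads on the listed genes ranged from 5105898 to 14800352 per tumor. Members took between 0.431% (4T1 untreated tumor 4) and 0.603% (4T1 chitin tumor 5) of these reads. Values are given as normalized counts, that is reads over the size factor that scales each tumor for depth, and differences on the log2 scale of the variance-stabilized values, which understate the fold of genes with few reads. Per kb of exon, the highest levels were those of Cox6a1 (2353 normalized counts per kb), Cox8a (2144), Cox4i1 (1885) and Cox6b1 (1119), all subunits of complex IV. Cox7a2l, which takes part in joining complexes into supercomplexes, had 948 and Ndufb9 732 normalized counts per kb. The lowest were Cox4i2 (15.9), an alternative form of Cox4, Cox8b (26.9), the Cox8 form of muscle, heart and brown fat, Ndufb2 (31.0) and Ndufaf4 (31.0). The exon length is the union over all annotated transcripts of a gene. For Ndufb2 it was 5628 bases, and its mean was 174 normalized counts before division by length.

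The first question was how the chain differed between untreated 4T1 and untreated 66cl4 tumors. Of the 73 members, 34 passed the threshold (limma, adjusted p under 0.05 over all genes), 14 higher and 20 lower in 4T1, where 55.8% of all genes passed, 28.7% higher and 27.1% lower. The share of members was thus below that of all genes. With quantile normalization in place of the size factors, the split was 8 higher and 25 lower. The median difference of the members was 0.03, against 0.02 over all genes. Averaged over the 4 treatments, 55 of the 73 members differed between the models, 27 higher and 28 lower in 4T1 (20 and 31 with quantile normalization), against a background of 78.8% (40.8% higher, 38.0% lower). The median was 0.07, against 0.01. The differences were mostly small. Their median size was 0.18 on the log2 scale, against 0.28 over all genes, and 2 members (2.74%), Cox7b2 and Ndufb9, differed by more than 1, against 9.30% of all genes.

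The complexes were then counted apart. Of all genes, 40.8% were higher and 38.0% lower in 4T1 over the 4 treatments, and 28.7% and 27.1% in untreated tumors. Over the 4 treatments, complex IV had 12 of 16 members higher and 3 lower in 4T1 (median 0.24; 8 higher and 3 lower with quantile normalization), and complex II had 0 higher and 4 of 4 lower (median -0.19), also with quantile normalization. Complex III was divided, with 4 of 8 higher and 3 lower (median 0.11). The core of complex I had 2 of 7 higher and 3 lower (median 0.06), its accessory subunits 8 of 30 higher and 12 lower (median 0.03), and its assembly factors 1 of 8 higher and 3 lower (median -0.09). With quantile normalization, the core of complex I had 1 higher and 3 lower, its accessory subunits 7 and 13, and its assembly factors 0 and 5. In untreated tumors alone, complex IV had 6 members higher and 1 lower (3 and 2 with quantile normalization), and complex II 0 higher and 2 lower (0 and 3). Complex III had 1 higher and 3 lower (also 1 and 3). The core of complex I had 1 and 1 (0 and 2), its accessory subunits 6 and 10 (4 and 10), and its assembly factors 0 and 3 (0 and 5).

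**Figure D1:**
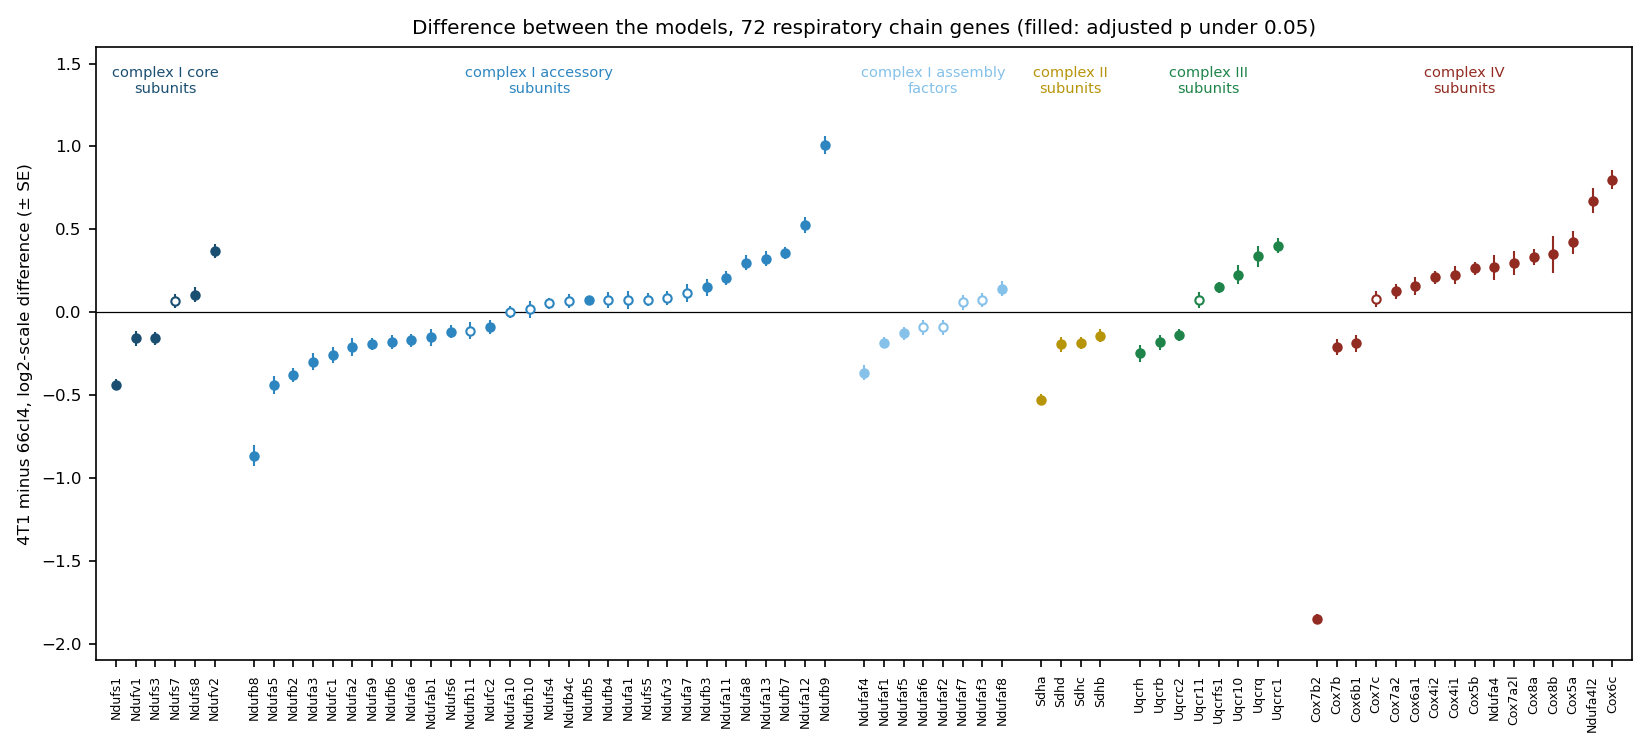
Difference between 4T1 and 66cl4 tumors over the 4 treatments for 72 of the 73 genes (vertical axis, log2 scale, ± SE), ordered by complex, with filled points at an adjusted p under 0.05. Points of complex II lie below 0, those of complex IV mostly above 0 apart from Cox7b2 at -1.85, and those of complex I on both sides.

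In 6 members (8.22%) the 19 4T1 and 20 66cl4 tumors did not overlap in normalized count, against 17.9% of all genes (9.87% higher, 7.98% lower). Cox6c and Ndufb9 were higher in every 4T1 tumor, and Cox7b2, Ndufb8, Ndufs1 and Sdha were lower.

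Within complex IV, Cox7b2 (chromosome 5, 71442823 to 71548205), a paralog of Cox7b best known from testis, was the member that differed most. It had 0 reads in 19 of 19 4T1 tumors. In 66cl4 tumors it had 80 to 315 reads, which gave normalized counts of 153, 113, 128, 115 and 128 in untreated tumors 1 to 5, of 132, 118, 143, 100 and 107 with anti-PD-1, of 106, 128, 166, 119 and 122 with chitin, and of 133, 125, 129, 111 and 130 with chitin + anti-PD-1. Every 66cl4 tumor was therefore well above every 4T1 tumor, in each of the 4 treatments. Against a floor of 3 reads per tumor, Cox7b2 was at least 38.8-fold lower in 4T1. The difference over the 4 treatments was -1.85 (SE 0.0280, adjusted p = 8.8e-35 in limma). With 0 reads in 4T1, the gene could meet the authors' filter on reads only through the 66cl4 tumors. Its 4T1 values had no spread, so the SE and p-value add no separate support to the absence of reads in 4T1. In the whole table, 7 genes were at 0 in all 4T1 tumors and 1 in all 66cl4 tumors. Cox7b, the widely expressed paralog, differed by -0.21 (adjusted p = 0.000141 in limma).

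Cox6c (chromosome 15, 35931976 to 35938246), a small subunit of complex IV, showed the largest rise of this complex on the variance-stabilized scale. In 4T1 tumors its normalized counts were 1256, 1249, 988 and 962 untreated, 1496, 1061, 1131, 1275 and 1566 with anti-PD-1, 1227, 1324, 914, 1067 and 1457 with chitin, and 1242, 910, 1402, 1421 and 984 with chitin + anti-PD-1. In 66cl4 tumors they were 524, 564, 751, 599 and 606, then 526, 643, 615, 581 and 543, then 691, 755, 707, 641 and 693, and 574, 658, 734, 619 and 651, in the same order of groups. The lowest 4T1 tumor (910) lay above the highest 66cl4 tumor (755). The difference was 0.80 (SE 0.0575, adjusted p = 9.7e-15 in limma) over the 4 treatments and 0.76 in untreated tumors (adjusted p = 2.4e-06 in limma). Per kb of exon, Cox6c had 338 normalized counts in 4T1 and 178 in 66cl4. By this measure Ndufa4l2 (61.6 and 14.9), Cox8b (43.8 and 10.9) and Cox4i2 (21.5 and 10.5), all with few reads, rose by a larger fold.

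The other abundant subunits of complex IV were higher in 4T1 by smaller amounts. Cox5a differed by 0.42 over the 4 treatments (adjusted p = 2.5e-06 in limma). Its 4T1 normalized counts ran from 383 through a median of 543 to 1211, and those of 66cl4 from 325 through 391 to 521. The top value was untreated tumor 4 alone, and the untreated difference of 0.66 fell to 0.42 without it (adjusted p = 0.00557 in limma). Cox8a differed by 0.33, Cox7a2l by 0.29, Ndufa4 by 0.27, Cox5b by 0.26, Cox4i1 by 0.22, Cox6a1 by 0.16 and Cox7a2 by 0.12, each past the threshold over the 4 treatments. Untreated tumors alone showed less of this. Of these, Cox8a (0.25, adjusted p = 0.0388 in limma) and Cox5b (0.25, adjusted p = 0.0148) passed there, calls that were lost under 10 and 4 of 18 alternatives. For Cox8a these were the fit of the compared groups only, median centring, quantile normalization (adjusted p = 0.203), the tumor number as a block and the fits without 4T1 tumor 1 (0.15, adjusted p = 0.220) or 2 or without 66cl4 tumor 1, 2, 4 or 5. For Cox5b they were the fit of the compared groups only, quantile normalization (adjusted p = 0.109) and the fits without 4T1 tumor 1 (adjusted p = 0.0940) or 66cl4 tumor 1 (adjusted p = 0.0513). Cox4i1 (0.10, adjusted p = 0.449), Cox6a1 (0.23, adjusted p = 0.0882) and Ndufa4 (0.25, adjusted p = 0.178) did not pass in untreated tumors. Cox4i1, the common form of the largest nuclear-encoded subunit, had 2427, 3138 and 3758 normalized counts as the lowest, median and highest 4T1 tumor, and 2383, 2641 and 3273 in 66cl4, so that the models overlapped widely. Cox6b1 went the other way (-0.19, adjusted p = 0.000958 in limma). Cox7c differed by 0.08, with an adjusted p of 0.125.

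The second forms of complex IV subunits had few reads. Ndufa4l2, a paralog of Ndufa4 known as a target of the hypoxia response, had 48.5, 70.4, 86.5 and 91.7 normalized counts in untreated 4T1 tumors, 64.2, 42.8, 79.3, 55.4 and 36.7 with anti-PD-1, 102, 48.1, 75.9, 97.6 and 32.4 with chitin, and 30.3, 154, 54.4, 80.6 and 30.3 with chitin + anti-PD-1. In 66cl4 it ranged from 7.16 to 33.4, with a median of 13.9. The models overlapped only between 30.3 and 33.4, where 3 tumors stood (4T1 chitin + anti-PD-1 tumors 1 and 5 and 4T1 chitin tumor 5, with 66cl4 untreated tumor 5 at the upper end). The difference was 0.67 (SE 0.0732, adjusted p = 3.2e-10 in limma). Cox4i2 was at 3.79, 16.6 and 31.0 (lowest, median, highest) in 4T1 and 4.07, 8.19 and 16.3 in 66cl4, a difference of 0.21 (adjusted p = 1.1e-05 in limma). Cox8b had a median of 6.23 normalized counts in 4T1 and 0 in 66cl4, with single tumors up to 76.3 and 46.4. It differed by 0.35 over the 4 treatments (adjusted p = 0.00447 in limma) and by 0.15 in untreated tumors (adjusted p = 0.585).

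**Figure D2:**
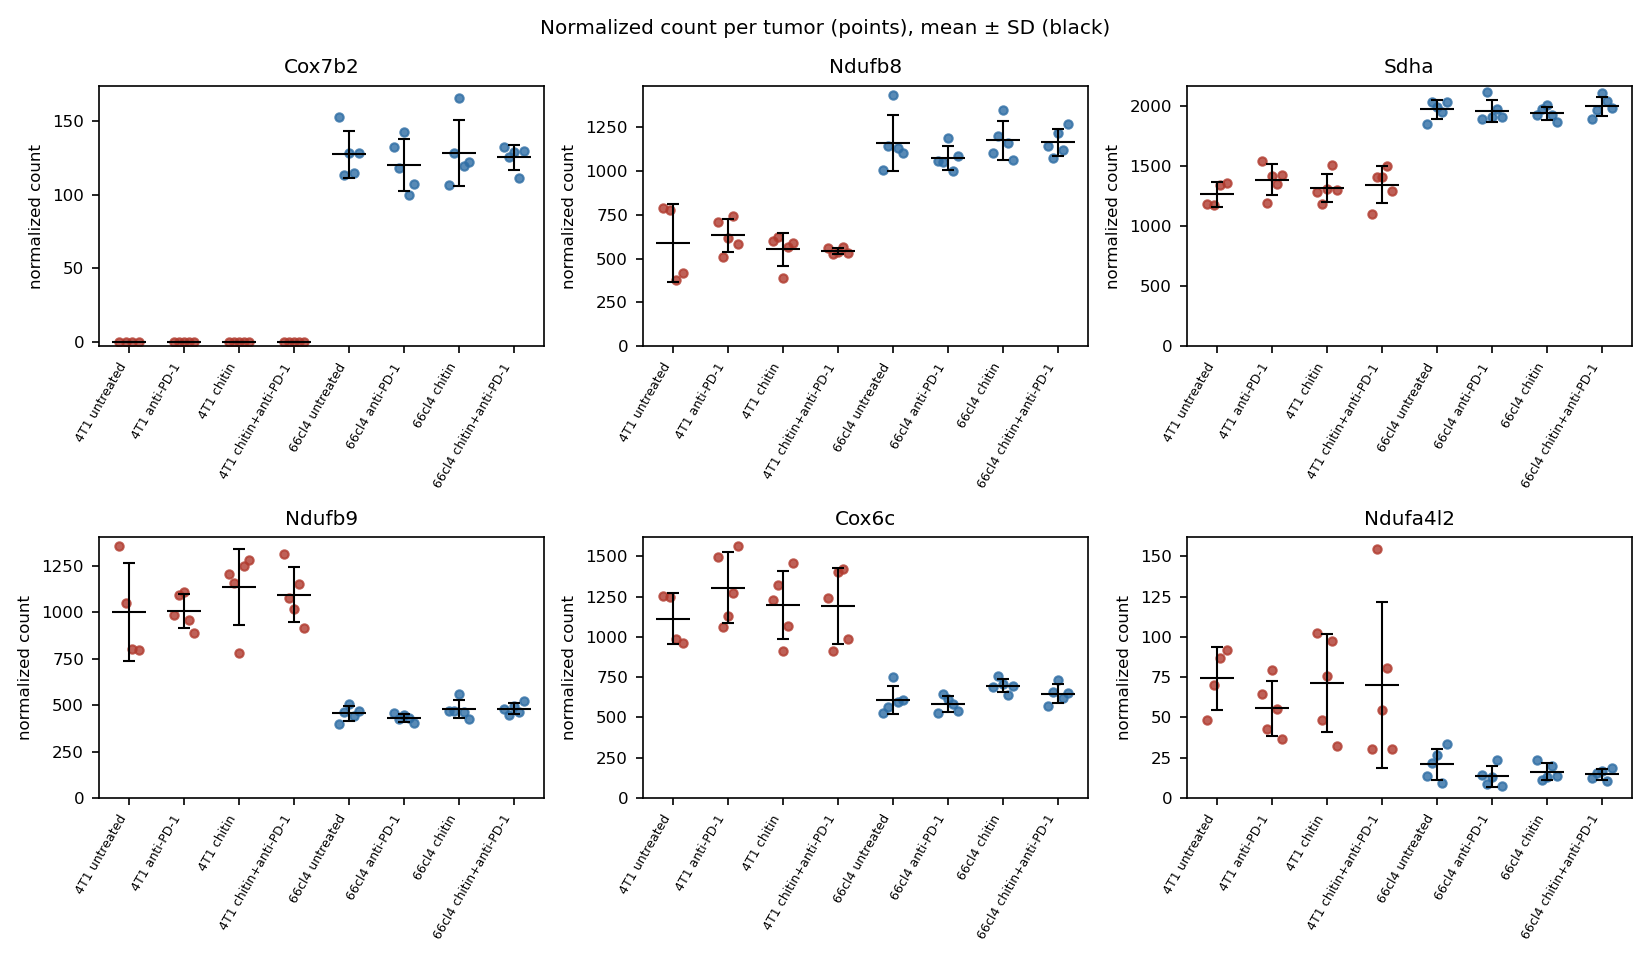
Normalized count (vertical axis, linear) of 6 genes in each tumor (points), with the mean ± SD of each of the 8 groups in black. Cox7b2 is at 0 in all 4T1 tumors, Ndufb8 and Sdha are lower and Ndufb9, Cox6c and Ndufa4l2 higher in 4T1, and the 4 treatments of a model lie on top of each other.

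In complex I, Ndufb9 and Ndufb8, both accessory subunits of the membrane arm, moved in opposite directions. Ndufb9 (chromosome 15, 58933801 to 58939516) was at 1356, 1049, 801 and 797 normalized counts in untreated 4T1 tumors, 988, 1093, 1111, 959 and 890 with anti-PD-1, 1209, 1160, 780, 1248 and 1284 with chitin, and 1313, 1075, 1019, 1152 and 917 with chitin + anti-PD-1. In 66cl4 it was at 397, 464, 507, 440 and 471, then 456, 427, 444, 429 and 402, then 467, 471, 558, 462 and 427, and 477, 447, 493, 464 and 524. The difference was 1.01 (SE 0.0540, adjusted p = 2.5e-18 in limma). Ndufb8 (chromosome 19, 44548571 to 44555442) had normalized counts of 786, 779, 377 and 415 in untreated 4T1 tumors, and of 1002, 1138, 1429, 1127 and 1100 in untreated 66cl4 tumors. Across all groups it spanned 377 to 786 in 4T1 and 996 to 1429 in 66cl4. The difference was -0.87 (SE 0.0624, adjusted p = 1.0e-14 in limma). The count of Ndufb9 over that of Ndufb8 lay between 1.29 and 2.34 in 4T1 and between 0.355 and 0.431 in 66cl4. Each gene by itself did not overlap between the models, in opposite directions, so this ratio is not a separate result. In GENCODE M21, 19.5% of the exon bases of Ndufb9 are shared on the same strand with the gene model Gm49356. Of those of Ndufb8, 4.26% are shared with Gm20538. Reads there could not be assigned without doubt if the authors' counting annotation, which is not known, also held these gene models.

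For Ndufb8 the untreated 4T1 tumors fell into 2 pairs, with tumors 1 and 2 above tumors 4 and 5. For Ndufb9 tumors 1 and 2 were also above tumors 4 and 5, but tumor 2 lay nearer to tumor 4 than to tumor 1. Tumor 4 was also the 4T1 tumor with the smallest share of reads on members and the lowest of its model in 17 of the 73 genes. Without it the median member difference between anti-PD-1 and untreated 4T1 tumors was 0.05 in place of 0.10.

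The 7 core subunits of complex I, which include those that hold the flavin and the iron-sulfur clusters, were divided. Ndufs1, the largest iron-sulfur subunit, ran from 488 through 547 to 712 normalized counts in 4T1 and from 712 through 787 to 862 in 66cl4, and differed by -0.44 (SE 0.0323, adjusted p = 1.8e-14 in limma). Its ranges met without crossing. Ndufv2 was higher in 4T1 (0.37, adjusted p = 3.4e-09), with 472, 568 and 728 against 355, 414 and 535 normalized counts. Its partner Ndufv1, which binds NADH, was lower (-0.16, adjusted p = 0.00209), as was Ndufs3 (-0.16, adjusted p = 0.000611). Ndufs8 was slightly higher (0.11, adjusted p = 0.0399), a call that was lost in 19 of the 39 fits that left out a single tumor. Ndufs7, which lies near the ubiquinone site, differed by 0.07 (adjusted p = 0.123).

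Among the other accessory subunits, Ndufa12 was higher in 4T1 (336, 514 and 573 against 221, 297 and 379 normalized counts, difference 0.53, adjusted p = 6.6e-12 in limma). Ndufb7 (0.36), Ndufa13 (0.32), Ndufa8 (0.30) and Ndufa11 (0.21) were higher too. Ndufa5 was lower (158, 189 and 356 against 243, 325 and 392, difference -0.44, adjusted p = 2.6e-09), as were Ndufb2 (81, 133 and 181 against 160, 212 and 235, difference -0.38), Ndufa3 (-0.30) and Ndufc1 (-0.26). In each of these 3 genes with printed counts, the ranges of the models overlapped. Ndufa10 was at 175 normalized counts per kb of exon in 4T1 and 174 in 66cl4 (adjusted p = 0.999). Ndufb4c, an intronless near-copy of Ndufb4, differed by 0.07 as did Ndufb4, and reads could have been split between them. Of the assembly factors, Ndufaf4 was lower in 4T1 (-0.36, adjusted p = 5.5e-09), as were Ndufaf1 (-0.18) and Ndufaf5 (-0.13), and Ndufaf8 was higher (0.14).

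Complex II was lower in 4T1 in all 4 subunits. Sdha (chromosome 13, 74322255 to 74350240), the flavoprotein that oxidizes succinate, was at 1182, 1174, 1345 and 1360 normalized counts in untreated 4T1 tumors, 1539, 1194, 1420, 1351 and 1430 with anti-PD-1, 1282, 1184, 1310, 1506 and 1305 with chitin, and 1105, 1410, 1413, 1503 and 1297 with chitin + anti-PD-1. In 66cl4 it was at 1851, 2038, 1992, 1950 and 2031, then 1890, 2117, 1909, 1973 and 1911, then 1924, 1977, 2011, 1922 and 1864, and 1895, 1968, 2107, 2043 and 1982. No 4T1 tumor reached the lowest 66cl4 tumor. The difference was -0.53 (SE 0.0337, adjusted p = 3.2e-16 in limma). The iron-sulfur subunit Sdhb (-0.14, adjusted p = 0.00229) and the membrane anchors Sdhc (-0.18, adjusted p = 1.9e-05) and Sdhd (-0.19, adjusted p = 0.000259) differed less. In untreated tumors Sdhc passed (-0.21, adjusted p = 0.0176 in limma), and Sdhb (-0.12, adjusted p = 0.258) and Sdhd (-0.17, adjusted p = 0.121) did not. The call of Sdhc was lost under 4 of 18 alternatives, the fit of the compared groups only, array weights and the fits without 4T1 tumor 4 (adjusted p = 0.0844) or 66cl4 tumor 3 (adjusted p = 0.0683).

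Summed over the 4 genes of complex II subunits, normalized counts per tumor spanned 3049 to 3792 in 4T1 and 3975 to 4662 in 66cl4. The ratio of the summed counts of complex IV to those of complex II was 3.42, 4.03 and 5.02 (lowest, median and highest) in 4T1 and 2.48, 2.68 and 3.02 in 66cl4, without overlap. The core of complex I over complex II (1.19 to 1.51 against 0.990 to 1.17), complex III over complex II (1.49 to 1.83 against 1.08 to 1.24) and ATP synthase over complex II (7.15 to 9.70 against 5.77 to 6.55) did not overlap either. All of these ratios divide by the sum of complex II, which by itself did not overlap between the models, so they are not separate results. Sdha was the largest part of that sum, with medians of 1345 normalized counts in 4T1 and 1971 in 66cl4. Complex IV over ATP synthase, without complex II, did overlap (0.445 to 0.596 against 0.421 to 0.473). These ratios compare sums of different genes and were read between models only.

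**Figure D3:**
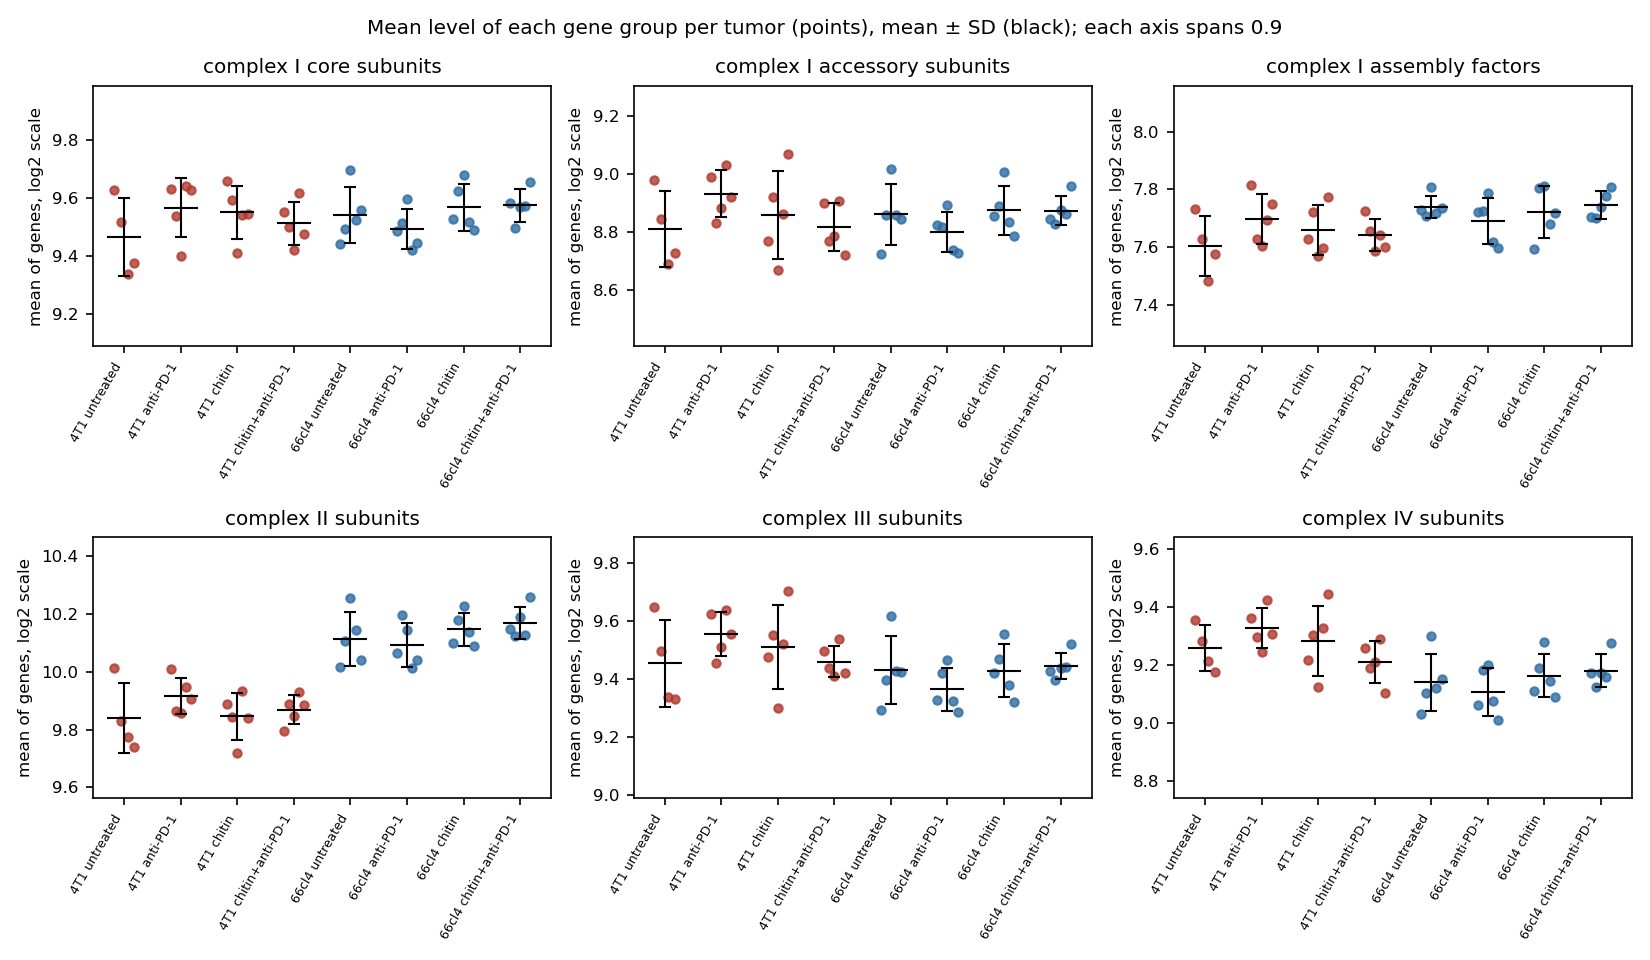
Mean level of the genes of each class in each tumor (points; vertical axis, log2 scale, 0.9 units tall in every panel), with the mean ± SD of the 8 groups in black. Complex II lies lower in 4T1 (group means 9.84 to 9.92) than in 66cl4 (10.09 to 10.17). Its tumors narrowly do not overlap (highest 4T1 tumor 10.012, lowest 66cl4 tumor 10.014), while tumors of the other classes overlap between models. Group means were also apart in complex IV (9.211 to 9.327 in 4T1, 9.107 to 9.181 in 66cl4) and complex III (9.454 to 9.556 and 9.364 to 9.446), both higher in 4T1.

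In complex III, Uqcrc1 and Uqcrc2, which together form the large matrix-facing core of the enzyme, differed in opposite directions. Uqcrc1 was at 1493, 1769 and 2341 normalized counts (lowest, median, highest) in 4T1 and 1150, 1317 and 1500 in 66cl4, a difference of 0.40 (SE 0.0457, adjusted p = 9.4e-10 in limma). Uqcrc2 differed by -0.14 (adjusted p = 0.000591). Their ratio was 2.04 to 3.02 in 4T1 and 1.41 to 1.84 in 66cl4, which restates these opposite differences. Uqcrfs1, the Rieske iron-sulfur protein, was higher by 0.15, Uqcrq by 0.34 and Uqcr10 by 0.23. The hinge protein gene Uqcrh was lower by 0.25 on the log2 scale (difference -0.25), as was Uqcrb (-0.18). Uqcr11 differed by 0.07 (adjusted p = 0.178).

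Ratios between further pairs were set side by side, and they are not results separate from the differences of the single genes. Cox6c over Cox6b1 was 1.20 to 2.21 in 4T1 and 0.609 to 0.879 in 66cl4. Ndufv2 over Ndufv1 had medians of 0.819 and 0.555, with ranges that met between 0.637 and 0.712. Ndufa4l2 over Ndufa4 had medians of 0.0825 and 0.0221.

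Genes that work beside the chain were counted in the same way over the 4 treatments, where 40.8% of all genes were higher and 38.0% lower in 4T1. Of 18 ATP synthase genes, 10 were higher and 3 lower in 4T1 (median 0.16), with the inhibitor Atpif1 at 0.48 and the catalytic-head subunit Atp5a1 at -0.39. Of 14 genes for cytochrome c, its reductase partner and ubiquinone synthesis, 4 were higher and 7 lower (median -0.07), with Cyc1, the cytochrome c1 of complex III that the symbol rule does not take, at -0.41. Of 17 genes of the citric acid cycle and pyruvate dehydrogenase, 5 were higher and 9 lower (median -0.14), with Ogdh at -0.57 and Dld at 0.50. Assembly factors of complexes II to IV had 9 of 29 higher and 10 lower, and mitochondrial ribosomal proteins 27 of 77 higher and 29 lower (median 0.03). In both lists each share was below that of all genes. Of 12 regulators of mitochondrial gene expression, 5 were higher and 5 lower. The coactivators Pprc1 (-1.15) and Ppargc1b (-0.51) and the GABP subunit Gabpb2 (-0.66) were lower, and Gabpb1 (0.41) was higher. Nrf1, which encodes NRF-1, differed by 0.04 (adjusted p = 0.202 in limma) and Gabpa by -0.00456 (adjusted p = 0.934).

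The members lie on 18 chromosomes, and each was set beside the genes within 5 Mb on either side (12 to 231 genes, other members left out, positions of RefSeq on GRCm38). Both members that were higher in every 4T1 tumor lie on chromosome 15. The 39 neighbours of Ndufb9 had a median difference of 0.37, and the 49 of Cox6c of 0.29. The 106 neighbours of Ndufb8 had a median of -0.19. Those of Sdha (-0.04), Ndufs1 (-0.04) and Ndufa4l2 (0.03) were near 0, and the 34 neighbours of Cox7b2 had a median of 0.17, opposite to the gene itself. Of the 55 members that passed, 41 had the sign of their neighbour median, a share that was not counted over all genes. Pearson's r between the 73 members and their neighbour medians was 0.38 and Spearman's rho 0.49 (0.58 and 0.54 without Cox7b2), a description over genes that share neighbours and tumors. The part of chromosomal position in these differences was not tested.

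**Figure D4:**
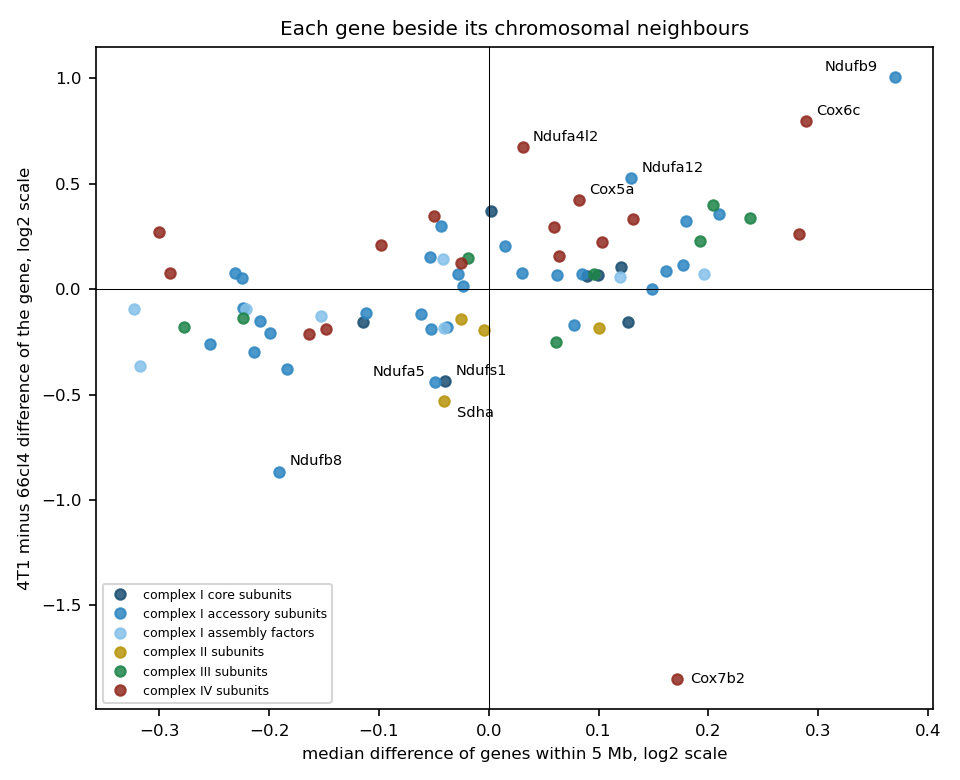
Difference between 4T1 and 66cl4 of each of the 73 genes (vertical axis, log2 scale) against the median difference of the genes within 5 Mb (horizontal axis, log2 scale), coloured by complex. Ndufb9 and Cox6c lie furthest to the upper right, whereas Cox7b2 lies below neighbours that were slightly higher in 4T1.

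RNA of cell type markers differed between the models as well, where 40.8% of all genes were higher and 38.0% lower in 4T1. These values do not tell a share of cells from RNA per cell. Of the marker genes in the table, 9 of 9 for epithelium, 9 of 9 for neutrophils, 8 of 8 for adipocytes and 6 of 7 for T cells were higher in 4T1, and 9 of 10 for macrophages were lower. Muscle markers had 9 of 13 higher and 1 lower, endothelium 4 of 5 higher and 0 lower, pericytes 2 of 7 higher and 1 lower, and fibroblasts 3 of 6 higher and 1 lower. Proliferation genes had 1 of 8 higher and 6 lower, and genes of the hypoxia response 4 of 10 higher and 0 lower, with Egln3 at 3.15 and Vegfa at 1.28. Their part in the differences of the members was not tested, apart from the relations that follow.

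Within each model, the levels of Cox8b, Ndufa4l2 and Cox4i2 were set against marker lists after their values had been seen, in 12 relations, with values centred on the treatment groups and 100000 permutations within groups. Cox8b followed the mean of 8 adipocyte markers in 4T1 tumors (r = 0.855, permutation p = 2e-05, adjusted p = 0.00024, n = 19, rho = 0.877 with permutation p = 2e-05, adjusted p = 0.00024). Without the 2 tumors farthest from the median of the markers r was 0.813. In 66cl4 r was 0.663 (permutation p = 0.0136, adjusted p = 0.0574) and rho 0.447 (permutation p = 0.0843, adjusted p = 0.27, n = 20), and r was 0.302 without the 2 farthest tumors, so that the relation rested on those tumors there. Against muscle markers r was 0.286 in 4T1 (permutation p = 0.218) and 0.154 in 66cl4 (permutation p = 0.484). The adipocyte means ranged from 6.33 to 10.39 in 4T1 tumors treated with anti-PD-1 and from 6.54 to 7.70 in untreated 4T1 tumors.

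**Figure D5:**
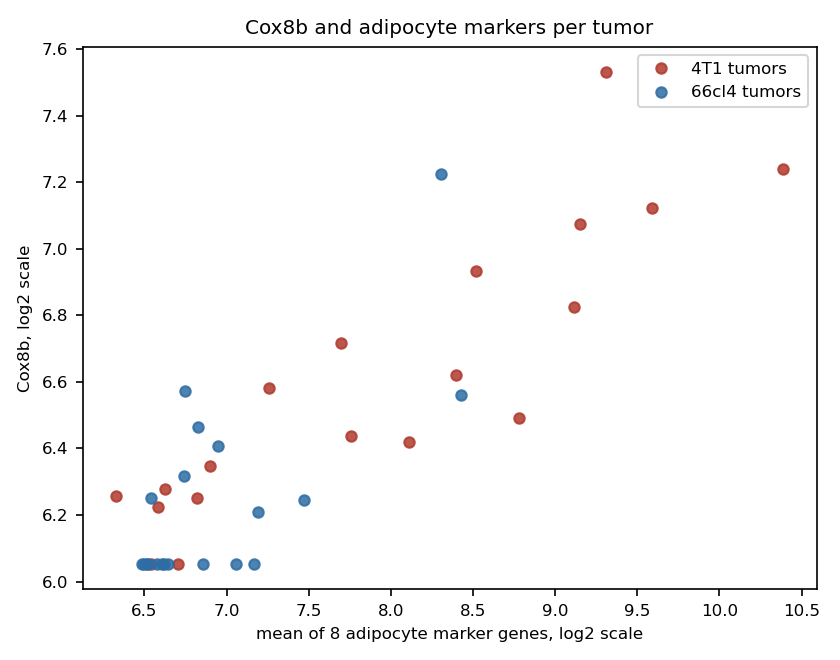
Cox8b (vertical axis, log2 scale, where the lowest value stands for 0 reads) against the mean of 8 adipocyte marker genes (horizontal axis, log2 scale) in each 4T1 and 66cl4 tumor. Cox8b was higher in the 4T1 tumors with more adipocyte RNA, and many 66cl4 tumors lie at the lower left with 0 reads.

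Ndufa4l2 gave r = 0.545 with pericyte markers in 4T1 tumors (permutation p = 0.0144, adjusted p = 0.0574) and rho = 0.561 (permutation p = 0.0126, adjusted p = 0.0757), which did not pass. Without the 2 farthest tumors r was 0.515. In 66cl4 it was 0.195. With the genes of the hypoxia response, r was 0.187 in 4T1 (permutation p = 0.517) and 0.492 in 66cl4 (permutation p = 0.0564, adjusted p = 0.169). No relation of Cox4i2 passed after adjustment.

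The second question was whether anti-PD-1, chitin or both changed the chain. In none of the 8 comparisons within a model did a member pass the threshold, and the background was 0% in each, since 0 of 14318 genes passed in limma, and 0 in limma-voom on the recovered reads. When limma weighted the tumors by their scatter (array weights), 960 genes passed in 4T1 tumors treated with anti-PD-1, 1 of them a member, Ndufa3 (0.40, adjusted p = 0.0412). The 3 comparisons with untreated tumors of a model share those tumors. In 4T1, the group means lay close together. The mean over all members was 8.97 ± 0.12 (SD, n = 4) in untreated tumors, and in 5 tumors each 9.07 ± 0.07 after anti-PD-1, 9.01 ± 0.12 after chitin and 8.97 ± 0.06 after the combination, on the log2 scale. Here and in the comparisons that follow, counts of differences above 0 are not set beside the share of all genes. They are descriptions and not a result about the members. With anti-PD-1, 61 of the 73 differences were above 0 (median 0.10), and 3 had an unadjusted p under 0.05, against 1273 of the 14318 genes. Ndufa3 was the foremost (0.35, SE 0.131, adjusted p = 0.518), followed by Uqcrb (0.23, adjusted p = 0.533) and Ndufaf5 (0.15, adjusted p = 0.559). Leaving out single tumors moved the median between 0.05 and 0.16.

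With chitin, 50 of the 73 differences in 4T1 were above 0 (median 0.05), and 2 had an unadjusted p under 0.05 (397 genes in all). These were Uqcrfs1 (0.20, adjusted p = 1 in limma) and Cox5a (-0.40, adjusted p = 1), the latter being -0.16 without untreated tumor 4. With chitin + anti-PD-1, 38 were above 0 (median 0.01), and Cox4i2 alone had an unadjusted p under 0.05 (-0.23, adjusted p = 1), against 367 genes. Cox4i2 stood at 30.7, 17.2, 31.0 and 14.4 normalized counts in untreated 4T1 tumors and at 9.0, 15.9, 11.4, 10.3 and 11.7 with chitin + anti-PD-1, so that the groups overlapped through 1 tumor of the combination. For both chitin-containing groups against the other groups, 27 were above 0 (median -0.02), with Cox4i2 at -0.15 (adjusted p = 0.665), among 1042 genes with an unadjusted p under 0.05.

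In 66cl4, the mean over all members was 9.0 ± 0.09 in untreated tumors, 8.94 ± 0.07 after anti-PD-1, 9.01 ± 0.08 after chitin and 9.02 ± 0.05 after the combination (SD, n = 5 each). With anti-PD-1, 9 of the 73 differences were above 0 (median -0.05). Ndufa6 had the smallest p (-0.14, adjusted p = 0.895 in limma) and was the only member with an unadjusted p under 0.05, against 767 genes. With chitin, 44 were above 0 (median 0.01), with Cox6c at 0.17 (adjusted p = 0.357) and Ndufa11 at 0.17 (adjusted p = 0.423) among 1639 genes with an unadjusted p under 0.05. With chitin + anti-PD-1, 48 were above 0 (median 0.02), with Ndufs8 at 0.16 (adjusted p = 0.413) and Cox7a2 at 0.13 (adjusted p = 0.453) among 1516 such genes.

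Both chitin-containing groups together gave the most members with an unadjusted p under 0.05, namely 11 of 73 (15.1%), against 2238 genes (15.6%). The share of members was the same as that of all genes. Of the 73 differences 57 were above 0, with a median of 0.04. Cox6c led (0.15, SE 0.0506, adjusted p = 0.176 in limma), followed by Cox7a2 (0.11, adjusted p = 0.227) and Ndufs8 (0.13, adjusted p = 0.227). The normalized counts of Cox6c were 641 to 755 in 66cl4 chitin tumors and 574 to 734 in those with chitin + anti-PD-1, against 524 to 751 untreated and 526 to 643 with anti-PD-1, so that the groups compared overlapped widely.

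The difference of the chitin response between models was tested directly. Of all genes 0.0978% passed in limma (0.0210% higher, 0.0768% lower in 4T1), and 0 of the 73 members did. Ndufs3 (-0.17, adjusted p = 0.363 in limma), Sdhb (-0.17, adjusted p = 0.367) and Ndufs6 (-0.16, adjusted p = 0.370) were the 3 with an unadjusted p under 0.05, against 1887 genes. The median over the members was -0.07, and 14 of 73 were above 0.

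For each tumor, the members with their highest or lowest normalized count of the model were counted. In 66cl4, chitin tumor 3, also the most deeply sequenced, was the highest of its model in 29 of the 73 genes and untreated tumor 3 in 20, while untreated tumor 1 was the lowest in 21 and anti-PD-1 tumors 4 and 5 in 15 each. In 4T1, chitin tumor 5 was the highest in 19 and anti-PD-1 tumor 4 in 11, and untreated tumor 4 the lowest in 17 and chitin tumor 3 in 13. Cox8b shared its lowest value between several 66cl4 tumors, untreated tumor 1 among them, and was counted for a single tumor. The same counts were not made over all genes. Whether members moved together more than other genes was therefore not tested.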

How the data were processed

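RNA sequencing of 39 tumors was used, all per-tumor columns of 1 table. The authors extracted RNA from whole tumors, prepared stranded TruSeq libraries, used HISAT2 to align them to mm10 and summarizeOverlaps, in the intersection non-empty mode and with strand, to count them per gene, kept genes with enough reads and applied the variance stabilizing transformation of DESeq2. The deposited values are therefore on a log2 scale, after division by a size factor per tumor. Versions and the counting annotation are not given in the sources used here.

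The lowest value, shared by all 39 tumors, stands for 0 reads, and with it the transformation was inverted to reads and size factors. All values came out whole within 0.001 reads, and the size factors equalled the median ratio in 39 of 39 tumors. The chi-square per gene between tumors of the same group (76 pairs) was 2.91 or more, where sampling noise alone gives about 1.

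The test was that of limma 3.58.1 (R 4.3.3) with its trended empirical Bayes step, 2-sided and adjusted over all 14318 genes after Benjamini-Hochberg to a threshold of 0.05, with no further filter, and all 73 members were tested. Comparisons between models and the difference of the chitin response used all 8 groups in 1 fit, and comparisons within a model its 4 groups. The labels number the tumors without naming the animals, and cells were inoculated into a pair of glands, so that some tumors may share a mouse and p-values measure the spread between these tumors. The fits were checked on simulated data with known changes.

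Members, lists and comparisons were chosen with earlier results of these data known. Genes were named as core subunits and isoform pairs, as the 6 largest rises and falls between models, and as the 3 smallest p-values in each treatment comparison. Values of 1 member are not reported here by name. Further named genes were chosen after their values were seen. Positions and exon lengths are those of RefSeq and GENCODE M21 on GRCm38. Alternatives were a filter on low values (the lowest 25% by mean), no trend, only the compared groups, both models fitted together, scaling by medians or by quantiles, array weights, a block for the tumor number, and each tumor left out. Limma-voom and equal read depth (5105898 reads) were added after seeing the data. Reads carried no molecular identifiers, so that they are not counts of single molecules, and the SD between tumors is the measure of error.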

Additional observations from a re-analysis of the deposited data

Results flagged for a closer look

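Within groups of 4 or 5 tumors, the highest or lowest value was looked for that stood apart from the others by more than Dixon's critical value allows at the 95% level. This was done for 8 members with leading differences or few reads and for the means of the classes, 116 groups in all, of which 8 had such a value, where chance gives about 1 in 20.

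In 4T1 chitin tumor 3, both Ndufb8 (388 normalized counts, others 564 to 624) and Ndufb9 (780, others 1160 to 1284) were low, although these genes differed between models in opposite directions. Cox4i2 was low in 4T1 chitin tumor 1 (3.79 normalized counts, others 16.6 to 19.9) and high in 66cl4 anti-PD-1 tumor 4 (16.3, others 6.42 to 8.52). Cox8b stood out as high in 4T1 chitin tumor 4 (76.3 normalized counts, others 0.948 to 6.23), in 66cl4 anti-PD-1 tumor 2 (46.4, others 0 to 1.19) and, by a single read, in 66cl4 chitin tumor 2 (0.805, others 0). The mean of the complex I assembly factors was high in 66cl4 untreated tumor 3 (7.81 on the log2 scale, others 7.71 to 7.73).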

How the results depend on the processing

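The count of members that differed between untreated models (34) lay between 29 and 35 when each tumor was left out in turn and between 26 (only the compared groups) and 34 under the other settings. Over the 4 treatments (55) it lay between 53 and 58, and between 51 and 62. Of 2798 values of single genes under alternatives, 49 lost and 21 gained a call. Ndufs7 in untreated tumors (0.03, not past the threshold) changed sign with median centring (-0.00352), with quantile normalization (-0.0165) and without untreated 4T1 tumor 1 or 2, with a range from -0.0168 to 0.0909 when single tumors were left out, and Cox4i1 with quantile normalization (-0.0393). With array weights, 1 member passed in 4T1 anti-PD-1 tumors (Ndufa3) and 1 in the difference of the chitin response (Ndufs8), in place of 0. For the chitin-containing 66cl4 groups, the count lay between 0 and 2 when single tumors were left out, with Ndufs6 and Cox6c passing without untreated tumor 3. The causes were not tested. With the tumor number as a replicate block, 33 members differed between untreated models, 55 over the 4 treatments and 0 in each treatment comparison, and Cox8a in untreated tumors lost its call (adjusted p = 0.05003). The deviations of tumors with the same number had a median correlation of -0.02 in 4T1 (27 pairs, 11 above 0.1) and 0.03 in 66cl4 (30 pairs, 11 above 0.1), and those with different numbers of 0.00402 (32 of 108 above 0.1) and -0.01 (31 of 120), and not every same-number pair was above 0.1, so that the numbers were not taken to pair tumors. Depth limits Cox8b and Cox4i2, which had few reads.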
